A study of Mus musculus with 13 samples.

Results

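The comparison set Nat10-ZcKO against WT oocytes at metaphase II (MII), the stage at which the ovulated mouse egg waits for sperm, in 5 Ribo-seq libraries, 3 from Nat10-ZcKO and 2 from WT oocytes. A gene was taken as well measured, and is called a member here, when it held 20 or more counts in WT MII replicate 1 or a mean of 20 or more over the Nat10-ZcKO libraries, which gave 1251 of the 22442 genes listed. Of these members, 844 passed in both groups, 100 through WT replicate 1 alone and 307 through the Nat10-ZcKO mean alone. WT MII replicate 2 held 4815 counts in all, against 134843 in WT MII replicate 1 and 146726 to 187967 in the Nat10-ZcKO libraries, and is shown apart. The series holds 11 Ribo-seq libraries of mouse oocytes, the other 6 from the germinal vesicle (GV) stage. In Nat10-ZcKO females 1 floxed Nat10 allele is recombined by Zp3-Cre, a recombinase that the Zp3 promoter switches on in growing oocytes of primary follicles and not in the somatic cells of the follicle. The other allele is lacking by the study's notation (Nat10 lox/-; Zp3-Cre), and the genotype of the WT females was given as WT with no further detail. The methods give hormone priming of females at 21 days of age for oocyte collection in general, and each Ribo-seq library came from about 100 oocytes treated with cycloheximide to hold the ribosomes in place. The series text also names tamoxifen injection for 3 days, which the methods do not describe for these mice, and whether the MII oocytes were ovulated or matured in culture was not stated for this assay. Nothing in the labels says that the replicates came from separate animals, so the p-values measure a spread between libraries. In the fit reported, which holds 1 WT library, that spread comes from the Nat10-ZcKO libraries alone and is pooled over genes.

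NAT10 is the acetyltransferase that writes N4-acetylcytidine (ac4C) on RNA, and it also acts in ribosomal RNA processing. A fully grown mouse oocyte has stopped transcription, and from then on its protein supply is set by which stored mRNAs are translated, silenced or destroyed. During maturation from GV to MII a set of dormant mRNAs gains poly(A) and ribosomes, often through a cytoplasmic polyadenylation element (CPE) in the 3′ UTR that the protein CPEB1 binds, while many housekeeping and growth-phase mRNAs lose them. Ribo-seq counts the RNA fragments that ribosomes shield from RNase, so a count on a coding sequence reflects both the amount of the mRNA and how heavily it is translated. Fewer mRNA molecules and fewer ribosomes per molecule cannot be told apart in these counts, and a share of a library says nothing of the total output of an oocyte.

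The targeted gene was too low to check the labels. Nat10 (chr2:103721256-103761270 of GRCm38) had a single read (1 count) in WT replicate 1, against 6, 3 and 2 in the Nat10-ZcKO libraries and 5 in WT replicate 2. The Nat10-ZcKO libraries lay above WT replicate 1, with a pooled ratio of 3.00 and an exact 95% interval from 0.436 to 129, and these counts cover the whole coding sequence, deleted exons and kept ones alike. Of 14 oocyte markers, 13 or 14 had a count in each of the 4 larger libraries, which gave them 2.24% of counts in WT replicate 1 and 1.81% to 3.00% in Nat10-ZcKO. WT replicate 2 held 4 counts on 2 of these 14 genes. Across the 1251 members, Pearson's r of log2(CPM + 1), where CPM scales each gene's count by the total of its library, was 0.72 to 0.83 between WT replicate 1 and the Nat10-ZcKO libraries, 0.83 to 0.89 among the Nat10-ZcKO libraries, and 0.24 to 0.33 between WT replicate 2 and the others. These correlations run across genes, which are not independent replicates.

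Most well measured genes lay close to equal, within what 1 WT library can show. Members took 79.9% of the counts of WT replicate 1 and 77.6%, 78.6% and 84.3% of those of Nat10-ZcKO replicates 1 to 3. The median log2 fold change of Nat10-ZcKO over WT replicate 1 was 0.13 over members, with an interquartile range from -0.25 to 0.49, beside 0.10 over all 2924 genes tested. The estimate was within 2-fold for 1064 members, 85.1%, and for 76.6% of all genes tested. The 95% intervals were wide: none was narrower than 0.88 log2 units to each side, and the median member had 1.08. They use a spread pooled over genes, so a gene's own scatter between Nat10-ZcKO libraries can be larger than its interval shows. Only 26 members had a whole interval inside 2-fold, so for the rest the interval also holds a difference of more than 2-fold. Among the 844 members that passed in both groups, WT replicate 1 lay inside the range of the Nat10-ZcKO libraries for 471. It lay below all of them for 239 (28.3%) and above all of them for 134 (15.9%), whereas over all genes tested all 3 Nat10-ZcKO libraries lay above WT replicate 1 in 28.3% and below it in 19.7%. Members that passed through 1 group alone were high there by construction and are left out of these counts. Of the 100 that passed through WT replicate 1, 89 lay below it in all Nat10-ZcKO libraries, and of the 307 that passed through the Nat10-ZcKO mean, 197 lay above.

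**Figure D1:**
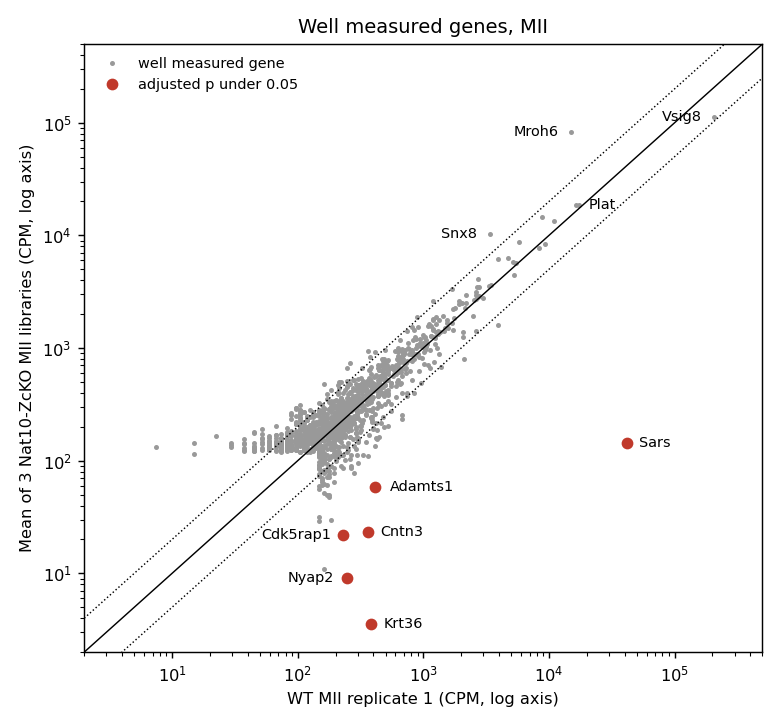
Mean CPM of the 3 Nat10-ZcKO MII libraries (y, log axis) against CPM of WT MII replicate 1 (x, log axis) for the 1251 well measured genes; the solid line is equality and the dotted lines 2-fold. Red points have an adjusted p under 0.05 in edgeR and all 6 lie below the line, Sars farthest out among abundant genes, while Mroh6 and Snx8 lie above it; the empty corner at the lower left is made by the threshold of 20 counts.

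A few genes held a large part of each library, and some of them had larger estimates of difference than most members. Plat, AU022751 and H1foo, also among the largest, had log2 fold changes of 0.04, 0.16 and 0.21. Vsig8, which encodes an immunoglobulin-domain membrane protein, took 20.6% of the counts of WT replicate 1 and 6.87%, 13.2% and 13.4% of those of Nat10-ZcKO replicates 1 to 3. Mroh6, a gene of the maestro heat-like repeat family, took 1.49% of WT replicate 1 and 4.13%, 11.2% and 9.62% of the Nat10-ZcKO libraries. WT replicate 1 lay above all Nat10-ZcKO libraries for Vsig8 and below them for Mroh6, while WT replicate 2, at 1.37% and 0.457%, lay below them for both. In edgeR the log2 fold change was -0.92 (SE 0.89, adjusted p 0.999) for Vsig8 and 2.46 (SE 0.96, adjusted p 0.617) for Mroh6, so neither passed. Snx8, a sorting nexin of the endosome, showed the Mroh6 order at 3367 CPM in WT replicate 1 and 7954, 14599 and 8272 CPM in Nat10-ZcKO, with a log2 fold change of 1.54 (SE 0.65, adjusted p 0.679). These genes also differed between the WT GV libraries, where Mroh6 held 48081, 29957 and 78769 CPM and Snx8 held 3382, 1070 and 10682 CPM. The mRNA fragments of the acRIP-seq libraries of WT GV oocytes, 1 anti-ac4C and 1 anti-IgG, held 5 and 3 counts on Vsig8 and 1 and 0 on Mroh6, out of 970997 and 116232. Plat and Bub1b, with smaller shares of the Ribo-seq libraries, held 1758 and 162, and 1365 and 100, in those 2 libraries. The 20 genes with the highest CPM in any MII library took 33.0% of WT replicate 1 and 20.1%, 31.2% and 32.9% of the Nat10-ZcKO libraries, and each class below was also computed without them. Of these 20 genes, 11 entered through WT replicate 2, where their CPM is highest.

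**Figure D2:**
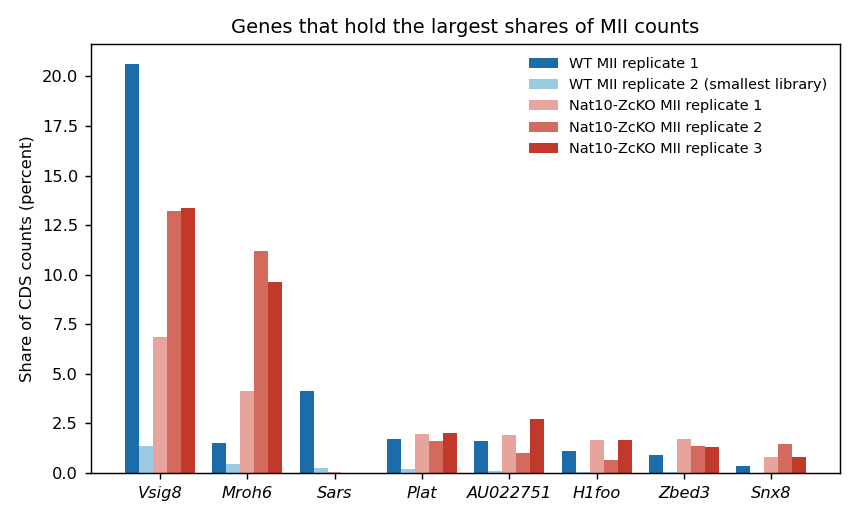
Share of CDS counts in percent (y) held by 8 abundant genes (x) in each MII library, 1 bar a library. Vsig8 is highest in WT MII replicate 1 at 20.6%, Mroh6 and Snx8 are higher in all 3 Nat10-ZcKO libraries, Sars is visible in WT libraries alone, and Plat is nearly level between WT replicate 1 and Nat10-ZcKO.

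The mRNAs known to be polyadenylated or translated on maturation held nearly the same share in both genotypes. Of 17 listed, 16 were members, and together they took 4.36% of the counts of WT replicate 1 (exact 95% interval 4.25% to 4.47%, counting error only) and 4.96%, 3.45% and 5.56% of those of Nat10-ZcKO. WT replicate 1 lay inside the Nat10-ZcKO range, with a log2 ratio of 0.09. In WT GV oocytes the same list took 0.327% ± 0.027 (SD, n = 3), and each of the 16 members was higher in all 4 larger MII libraries than in any WT GV library. The list was chosen for that rise, and 16 of its genes passed a threshold set on MII counts, so the rise is a description. Of the 17 genes tested, 0 were called in either direction, by edgeR or by DESeq2, and 0 had an unadjusted p under 0.05.

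The CPE is the sequence by which this set is best known, and matches near the 3′ end of the GENCODE M21 transcript with the longest coding sequence are shown for 4 of the list. The search took TTTTAT or TTTTAAT on the sense strand in the last 100 bases, and the capitals mark the match in a window of 24 bases, 5′ to 3′, on GRCm38.
Tcl1, minus strand, chr12:105216799-105216822, 3′ UTR: gtgtgggaTTTTATgtggttctat
Bub1b, plus strand, chr2:118641525-118641548, 3′ UTR: ttttgtaaTTTTATaacatgtact
Btg4, plus strand, chr9:51119801-51119824, 3′ UTR: aaatccctTTTTATgtctttttaa
Wee2, plus strand, chr6:40466788-40466811, 3′ UTR: aataaagaTTTTATcttatccaaa
The match ended 51 bases before the transcript end in Tcl1, 53 in Bub1b, 61 in Btg4 and 12 in Wee2. Of the 16 listed genes with at least 100 bases of 3′ UTR, 6 held a match (37.5%). With such a UTR, 31.0% of members, 26.5% of genes tested and 17.7% of all 19043 genes held one. Ccnb1, Mos, Dazl and Slbp had none in that window of the transcript used, which says only that these letters are not there.

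Plat, tissue-type plasminogen activator and the textbook case of a dormant oocyte mRNA, stood at 17354 CPM in WT replicate 1 and at 19791, 16234 and 19907 CPM in Nat10-ZcKO, with a log2 fold change of 0.04 (95% interval -1.26 to 1.33). WT replicate 1 lay inside the Nat10-ZcKO range, and the 3 WT GV libraries held 61.9, 82.3 and 83.2 CPM. Tcl1, a coactivator of the kinase AKT, held 9300 CPM in WT replicate 1 and 8571, 4314 and 12524 CPM in Nat10-ZcKO (log2 fold change -0.17, interval -1.32 to 0.98). Its 4 measured cluster neighbours among the members followed the same order, with WT replicate 1 inside the Nat10-ZcKO range for all 5. Beside this, WT replicate 1 lay inside for 47.3% of all members and 55.8% of those that passed in both groups. The family held 1.11% in WT replicate 1 and 1.07%, 0.556% and 1.5% in Nat10-ZcKO. Replicate 2 was the lowest Nat10-ZcKO library in each of these shares.

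Bub1b, the spindle checkpoint kinase BUBR1, held 5451 CPM in WT replicate 1 and 6831, 4314 and 6024 CPM in Nat10-ZcKO (log2 fold change -0.01, interval -1.10 to 1.08). Mos, the kinase that drives the MAPK pathway and holds the egg at metaphase II, held 1283 CPM and 1346, 545 and 1121 CPM (log2 fold change -0.43, interval -1.35 to 0.49). Ccnb1, cyclin B1, held 460 CPM and 585, 320 and 751 CPM (log2 fold change 0.21, interval -0.75 to 1.18). In all 3 genes the WT value fell inside the Nat10-ZcKO range. Slbp, which binds the stem-loop of histone mRNAs, was the abundant gene of the list with non-overlapping groups, at 3960 CPM in WT replicate 1 and 6091, 4662 and 7802 CPM in Nat10-ZcKO, and its log2 fold change of 0.59 (SE 0.58, adjusted p 0.999) did not pass. Tpx2, a spindle assembly factor, and Cnot7, a deadenylase, showed the same order at log2 fold changes of 0.27 and 0.46, which did not pass either.

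**Figure D3:**
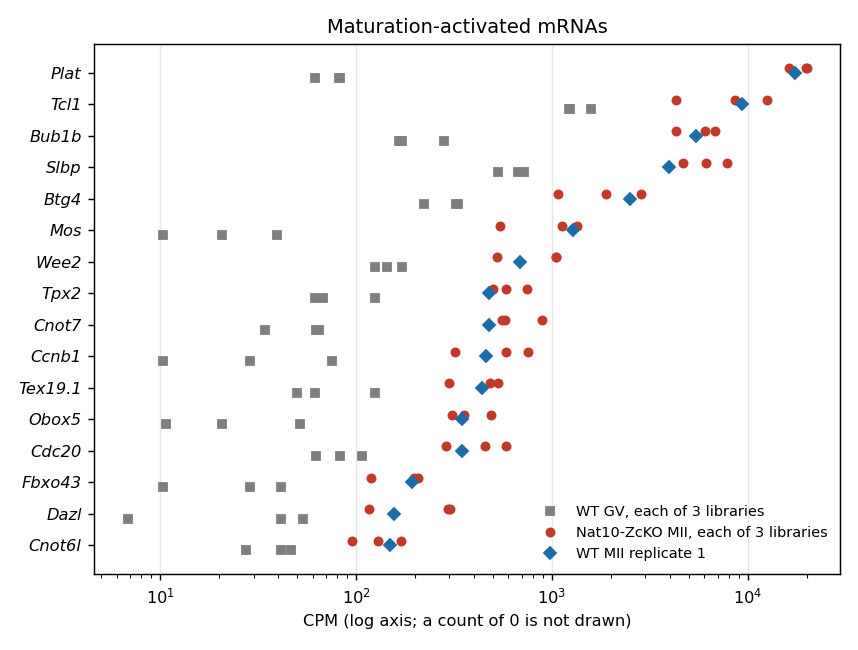
CPM (x, log axis) of the 16 well measured maturation-activated genes (y) in each of 3 WT GV libraries, WT MII replicate 1 and each of 3 Nat10-ZcKO MII libraries. WT MII replicate 1 sits within the Nat10-ZcKO points for 13 genes and just below them for Slbp, Tpx2 and Cnot7, and all MII points lie to the right of the WT GV points. Over all members WT MII replicate 1 lay within for 47.3% and below for 34.9%.

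Among 32 gene classes, 13 were abundant, taking at least 0.5% of counts in WT replicate 1 or in the Nat10-ZcKO mean, and 11 of these 13 differed by less than 1.5-fold. WT replicate 1 lay inside the range of the Nat10-ZcKO libraries for 8 of the 13, below all of them for 4 and above all of them for 1. The lists overlap, so the classes are not independent of each other. All genes of the maturation-activated list except Plat and Tex19.1 are also in another class, Tcl1, Bub1b, Btg4 and Slbp among them. Tcl1 alone held 1254 of the 1497 counts of the Tcl1 family in WT replicate 1. With 1 library against 3, no exact permutation test of a share can reach a p of 0.05, and none was made. Apart from the maturation-activated mRNAs and the Tcl1 family, the classes that stayed inside the range were the anaphase-promoting complex and spindle checkpoint, mRNA decay, the oocyte-secreted factors, histone supply, chaperones and splicing factors. Their log2 ratios ran from -0.12 for the oocyte-secreted factors to 0.37 for histone supply. Without those 20 genes histone supply moved above the range, at 0.872% in WT replicate 1 and 1.06%, 0.977% and 1.52% in Nat10-ZcKO; H1foo, the oocyte linker histone, is one of the 20.

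**Figure D4:**
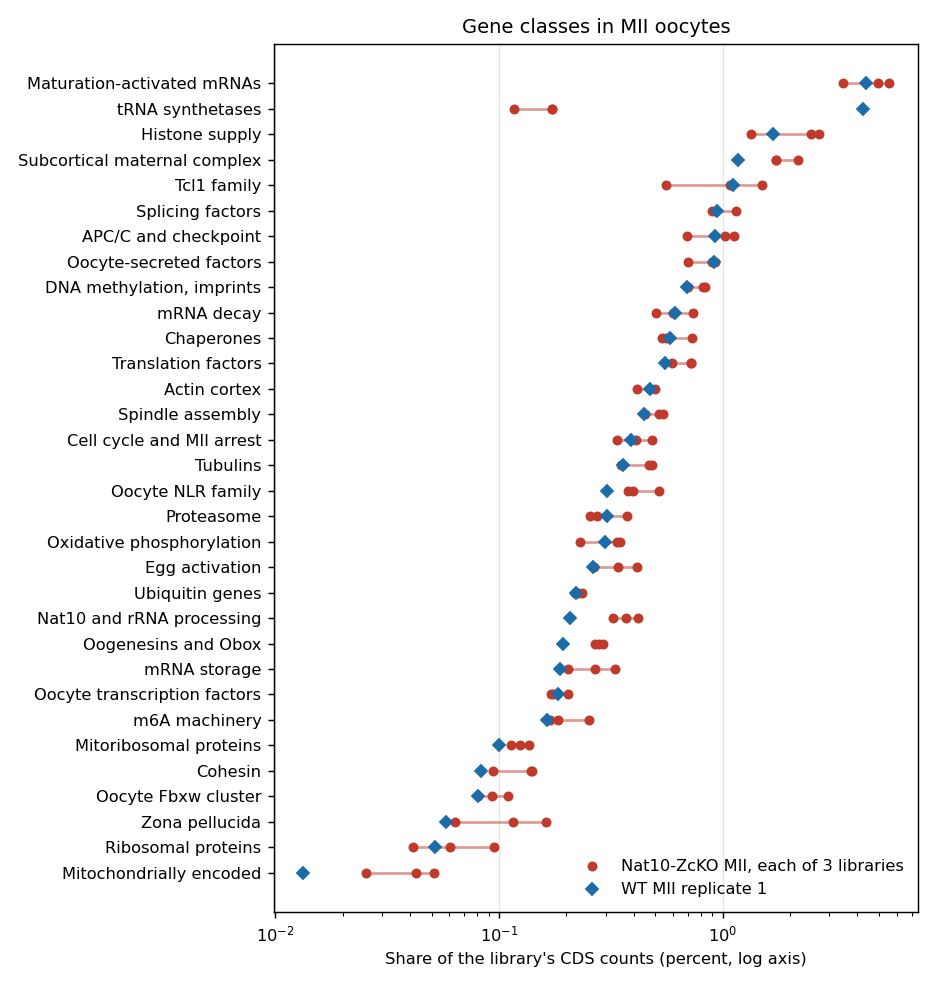
Share of a library's CDS counts in percent (x, log axis) for 32 gene classes (y), with WT MII replicate 1 as a blue diamond and the 3 Nat10-ZcKO MII libraries as red points joined by a line. The diamond falls on the red line for 17 classes, to its left for 14 and to its right for 1, the tRNA synthetases at 4.25% against 0.116% to 0.173%.

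Of the classes that drive and hold meiosis, the checkpoint and arrest factors had WT replicate 1 inside the Nat10-ZcKO range, which does not show equality. The checkpoint and anaphase-promoting complex class held 0.922% in WT replicate 1 and 1.12%, 0.693% and 1.02% in Nat10-ZcKO, and all 6 of its members had WT inside the range. WT lay inside for 47.3% of all members and 55.8% of those that passed in both groups. In all Nat10-ZcKO libraries 28.3% of all genes tested lay above WT and 19.7% below. Pttg1, the securin that restrains separase until anaphase, had one of the intervals inside 2-fold, with a log2 fold change of -0.04 (-0.98 to 0.91) from 1231 CPM in WT replicate 1 and 1516, 532 and 1697 CPM in Nat10-ZcKO. Cyclins, Cdk1 partners and arrest factors held 0.389% and 0.481%, 0.337% and 0.411%, with WT inside the range for 6 of 8 members. Spindle assembly genes held 0.446% and 0.541%, 0.451% and 0.518%, all 3 above WT, but without those 20 genes WT replicate 1 at 0.646% lay inside their 0.644% to 0.766%. Pcnt and Numa1, spindle pole proteins, and Ckap5, a microtubule polymerase, had log2 fold changes of -0.13, -0.12 and 0.31.

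The mRNA decay machinery, which clears maternal transcripts, held 0.611% in WT replicate 1 and 0.599%, 0.505% and 0.736% in Nat10-ZcKO, a log2 ratio of 0.01. Btg4, the adaptor that brings the CCR4-NOT deadenylase to translated mRNAs, held 2499 CPM in WT replicate 1 and 1883, 1070 and 2855 CPM in Nat10-ZcKO (log2 fold change -0.40, interval -1.36 to 0.55). Dcp1a, a decapping activator, held 1313 CPM and 1447, 1315 and 1234 CPM (log2 fold change -0.06, interval -1.01 to 0.89). Both had WT inside the Nat10-ZcKO range. In WT GV oocytes the class held 0.154% ± 0.0056 (SD, n = 3).

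Factors secreted by the oocyte held 0.913% in WT replicate 1 and 0.897%, 0.698% and 0.927% in Nat10-ZcKO. Gdf9, the TGF-β family ligand that acts on granulosa and cumulus cells, was the one member with all Nat10-ZcKO libraries below WT, at 5273 CPM against 4421, 4280 and 4703 CPM, and its log2 fold change of -0.30 (SE 0.53, adjusted p 0.999) did not pass. Oosp1, an oocyte-secreted protein, held 2759 CPM and 3511, 2038 and 3231 CPM, a log2 fold change of 0.01 (SE 0.51). The chaperones held 0.582% and 0.729%, 0.557% and 0.534%, and Hsp90ab1, Hspa5 and Hsp90b1 each had WT inside the range with log2 fold changes of -0.09, -0.09 and -0.12. Splicing factors held 0.946% and 1.15%, 0.927% and 0.899%, with WT inside the range for 16 of 22 members. Beside this, WT lay inside for 47.3% of all members and 55.8% of those that passed in both groups.

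DNA methylation and imprint protection genes, which guard parental marks in the egg and early embryo, held 0.693% in WT replicate 1 and 0.821%, 0.697% and 0.833% in Nat10-ZcKO. All 3 were above WT, by a log2 ratio of 0.18, yet without those 20 genes WT at 1.03% lay inside their 1.01% to 1.24%. Tet3, the dioxygenase that oxidises 5-methylcytosine, held 2551 CPM in WT replicate 1 and 2873, 2249 and 2830 CPM in Nat10-ZcKO (log2 fold change -0.01, interval -1.01 to 0.98). Uhrf1, which recruits the maintenance methyltransferase, held 482 CPM and 798, 859 and 733 CPM, groups that did not overlap, and a log2 fold change of 0.65 (SE 0.50, adjusted p 0.999) that did not pass.

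Beside these, intervals inside 2-fold were held by Ccdc117, Sap30, Kbtbd8, Prc1, Upf1, Stard13, Map4, Sall4 and Tcl1b1, which with Pttg1 are the 10 most abundant members with such an interval. Their log2 fold changes ran from -0.06 for Map4, a microtubule-binding protein, to 0.04 for Upf1, the helicase of nonsense-mediated decay. No member's interval was narrower than 0.88 log2 units to each side. Such a choice therefore admits only estimates near equality, and these small values follow from it. Prc1, which bundles the central spindle, held 1268 CPM in WT replicate 1 and 1761, 961 and 1421 CPM in Nat10-ZcKO. WT replicate 1 lay inside the Nat10-ZcKO range in all 10, an order that the same choice favours.

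The subcortical maternal complex, a protein assembly under the egg membrane that early embryos need, held a larger share in Nat10-ZcKO. It took 1.17% of counts in WT replicate 1 (exact 95% interval 1.11% to 1.23%) and 2.18%, 1.73% and 1.73% in Nat10-ZcKO, a ratio of 1.61. Zbed3, a partner of the complex, carried most of it, at 8810 CPM in WT replicate 1 and 16966, 13685 and 13188 CPM in Nat10-ZcKO, with groups that did not overlap and a log2 fold change of 0.64 (SE 0.65, adjusted p 0.999). Padi6, an egg-specific peptidylarginine deiminase, held 912 CPM and 1686, 1731 and 1240 CPM (log2 fold change 0.68, SE 0.51), and Nlrp5, also called MATER, held 519 CPM and 915, 566 and 877 CPM (log2 fold change 0.53, SE 0.50). Neither passed, and for both all Nat10-ZcKO libraries were above WT. Tle6, a further core subunit, had WT replicate 1 inside the Nat10-ZcKO range, at 623 CPM and 670, 525 and 739 CPM. Of the 7 members, 4 had all Nat10-ZcKO libraries above WT and 0 below, beside 28.3% of all genes tested and 34.9% of all members that lay above. The threshold favours this order in members that passed through the Nat10-ZcKO mean alone, of which 64.2% lay above. Leaving out those 20 genes, Zbed3 among them, the class held 0.432% in WT replicate 1 and 0.604%, 0.523% and 0.615% in Nat10-ZcKO, a ratio of 1.35.

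Several other oocyte classes had the same order, while the oocyte Fbxw genes, at 0.0808% in WT replicate 1 and 0.110%, 0.0934% and 0.0808% in Nat10-ZcKO, did not. The zona pellucida genes, which code the egg coat, held 0.0578% in WT replicate 1 and 0.115%, 0.162% and 0.0639% in Nat10-ZcKO, a ratio of 1.96, with replicate 3 close to WT. Zp2 held 28 counts in WT replicate 1 and 83, 98 and 49 in the Nat10-ZcKO libraries (log2 fold change 1.09, SE 0.54, adjusted p 0.885). Its unadjusted p was 0.045, and it did not pass. The oocyte NLR family held 0.306% in WT and 0.519%, 0.376% and 0.396% in Nat10-ZcKO. Of its 7 members, 6 were above in all libraries, beside 28.3% of all genes tested and 34.9% of all members. Its list shares Nlrp2, Nlrp4f and Nlrp5 with that of the subcortical maternal complex, so these classes are not separate. The oogenesins and Obox homeobox genes held 0.193% and 0.268%, 0.292% and 0.281%. The mRNA storage factors held 0.187% and 0.331%, 0.270% and 0.203%, and Zar1, which binds stored maternal mRNAs, held 289 CPM and 516, 579 and 332 CPM (log2 fold change 0.62, SE 0.52). The egg activation genes held 0.264% and 0.340%, 0.416% and 0.267%. Among them Uchl1, a ubiquitin hydrolase, held 1261 CPM and 1788, 2719 and 1152 CPM.

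Most of these classes were far larger shares of WT GV libraries than of MII libraries of either genotype. The zona genes held 2.54% ± 0.41 (SD, n = 3) in WT GV, the subcortical maternal complex 5.11% ± 0.75 and the NLR family 2.34% ± 0.44, whereas the oogenesins and Obox genes, at 0.0554% ± 0.0099, were a smaller share at GV than at MII. Ordered by mean level in WT GV, genes tested had a median log2 fold change at MII of -0.05 in the lowest of 5 equal bins and 0.19 in the highest, and over 2924 genes Spearman's rho of the 2 was 0.0987. Leaving out each Nat10-ZcKO library gave rho of 0.056 to 0.094, so the relation was weak in every case. The points share the MII libraries and their depth, and no p is given.

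Genes of ribosomal RNA processing and the nucleolus, where NAT10 itself acts, also held a larger share in Nat10-ZcKO, at 0.208% in WT replicate 1 and 0.325%, 0.368% and 0.418%, a ratio of 1.78. Ncl, nucleolin, held 120 counts in WT replicate 1 and 259, 278 and 377 in the Nat10-ZcKO libraries (log2 fold change 1.04, SE 0.53, adjusted p 0.907). Npm1, nucleophosmin, held 33 counts and 90, 86 and 146 (log2 fold change 1.39, SE 0.54, adjusted p 0.617). In both, every Nat10-ZcKO library was above WT by CPM, and neither passed. Thumpd1, the adaptor with which NAT10 acetylates tRNA, lay inside the range at 40 counts in WT replicate 1 and 60, 23 and 44. Of the 8 genes of the list tested, 4 lay above in all libraries, 1 below and 3 across WT, with 0 called and 2 at an unadjusted p under 0.05, beside 28.3% above and 19.7% below over all genes tested. Among the 4 above, Gar1 and Utp20, each at 18 counts in WT replicate 1, were members through the Nat10-ZcKO mean alone. Without those 20 genes the ratio of the class was 1.68.

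Translation initiation and elongation factors held 0.551% in WT replicate 1 and 0.724%, 0.722% and 0.595% in Nat10-ZcKO, a log2 ratio of 0.30. Eif5b, which joins the ribosomal subunits, held 326 CPM and 468, 702 and 845 CPM (95% interval of the log2 fold change -0.02 to 2.02, adjusted p 0.937). Eif4g1, the scaffold of the cap-binding complex, went the other way at 667 CPM and 569, 348 and 551 CPM (log2 fold change -0.52, SE 0.47). Of the class's 16 members, 6 were above in all libraries and 1 below. Beside this, 28.3% and 19.7% of all genes tested, and 34.9% and 17.8% of all members, lay above and below. Genes of the cytosolic ribosome itself were barely read: 85 genes gave 0 members, and took 0.0519% of WT replicate 1 and 0.0601%, 0.0954% and 0.0413% of Nat10-ZcKO, with WT inside the range. They took 0.353% of WT MII replicate 2 (17 counts) and 0.262% ± 0.017 (SD, n = 3) of WT GV libraries. The 13 protein genes of the mitochondrial genome had a class ratio of 2.98 on few counts and gave 1 member, mt-Cytb. It held 4 counts in WT replicate 1 and 13, 30 and 23 in the Nat10-ZcKO libraries (log2 fold change 2.14, SE 0.85) and did not pass. It was a member through the Nat10-ZcKO mean alone, so the threshold favoured this order.

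The tRNA synthetases were the class with WT replicate 1 above all Nat10-ZcKO libraries, and Sars held 5589 of the class's 5733 counts there. The class held 4.25% of WT replicate 1 and 0.173%, 0.172% and 0.116% of the Nat10-ZcKO libraries. Sars, the cytosolic seryl-tRNA synthetase (chr3:108424865-108445209), held 5589 counts in WT replicate 1 and 41, 21 and 11 in Nat10-ZcKO. Its 3 well measured relatives Iars, Farsb and Tars were each higher in all Nat10-ZcKO libraries, Iars at 12 counts in WT replicate 1 and 44, 47 and 39 in Nat10-ZcKO (95% interval of the log2 fold change 0.27 to 2.72, adjusted p 0.664), and none of the 3 passed. All 3 were members through the Nat10-ZcKO mean alone, so this order was favoured by the threshold. Without those 20 genes, which include Sars, the class turned to 0.159% in WT replicate 1 and 0.190%, 0.230% and 0.163% in Nat10-ZcKO.

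Of the 2924 genes tested, 6 passed an adjusted p of 0.05 in edgeR's quasi-likelihood test, all lower in Nat10-ZcKO (0.205% of genes tested), and 0 passed as higher (0%). At an unadjusted p under 0.05 there were 83 lower and 76 higher. All 6 are members, and 5 of them, all but Sars, had passed the threshold through WT replicate 1 alone and so were high there by selection. DESeq2 called 2 lower, Sars and Krt36, and 0 higher. The fit rests on 1 WT library that is assumed to vary like the Nat10-ZcKO libraries, and with WT replicate 2 added, 4 genes passed, of which Krt36 and Nyap2 were shared. Without Nat10-ZcKO replicate 1, 0 genes passed in either direction, without replicate 2 there were 2 lower, and without replicate 3 there were 9 lower and 1 higher.

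Sars had a log2 fold change of -8.28 (SE 0.64, adjusted p 2.83e-34), and WT replicate 1 was 281-fold above the pooled Nat10-ZcKO libraries by CPM (exact 95% interval 223 to 359, counting error only). WT MII replicate 2 held 12 counts of Sars. The WT GV libraries spread widely, at 7026, 419 and 1914 CPM, against 41448 CPM in WT MII replicate 1 and 218, 143 and 68.9 CPM in the Nat10-ZcKO MII libraries. The Nat10-ZcKO GV libraries held 4297, 716 and 206 CPM, inside or below the WT GV spread, and 2 of these 3 also lay above every Nat10-ZcKO MII library. With all 5 MII libraries in the fit the log2 fold change was -7.44 with an adjusted p of 0.307. The acRIP-seq libraries held 187 anti-ac4C and 21 anti-IgG counts on Sars, a ratio of shares of 1.07 (exact interval 0.677 to 1.76).

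Krt36, a hair keratin (chr11:100102007-100105626), held 52 counts in WT replicate 1, against 2, 0 and 0 in the Nat10-ZcKO libraries, with a log2 fold change of -6.44 (SE 0.81, adjusted p 2.21e-12). WT MII replicate 2 held 27 counts of it in its 4815. Cntn3, a neural cell adhesion protein (chr6:102162655-102573101), held 49 counts in WT replicate 1 and 12, 0 and 1 in the Nat10-ZcKO libraries (log2 fold change -3.95, SE 0.64, adjusted p 5.99e-07). Nyap2, a neuronal phosphoprotein (chr1:81076950-81341764), held 33 counts in WT replicate 1, 7 in replicate 2, and 4, 0 and 1 in the Nat10-ZcKO libraries (log2 fold change -4.64, SE 0.87, adjusted p 6.58e-05). The WT GV libraries differed among themselves for them, with 179, 12 and 37 counts of Cntn3 and 91, 7 and 7 of Nyap2.

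Adamts1, a secreted protease of the follicle's matrix at ovulation (chr16:85793827-85803113), held 56 counts in WT replicate 1 and 7, 10 and 11 in the Nat10-ZcKO libraries (log2 fold change -2.90, SE 0.55, adjusted p 7.95e-05). Cdk5rap1, an enzyme that modifies mitochondrial tRNA (chr2:154335380-154373010), held 31 counts and 1, 8 and 1 (log2 fold change -3.49, SE 0.79, adjusted p 0.00446). For both genes WT replicate 2 had 0 counts, and for both WT replicate 1 stood above each Nat10-ZcKO library. Of the acRIP-seq libraries, anti-ac4C held 82 counts on Cdk5rap1 and 2 on Adamts1, and anti-IgG held 7 and 0. For Cdk5rap1 the ratio of shares was 1.40 (exact interval 0.651 to 3.60).

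**Figure D5:**
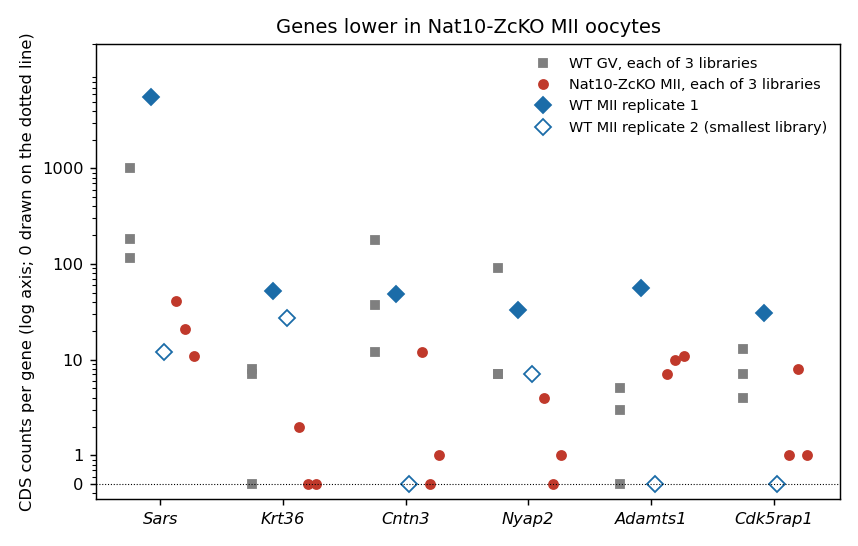
CDS counts (y, log axis, 0 drawn on the dotted line) of the 6 genes called lower in Nat10-ZcKO MII oocytes (x), in WT GV, WT MII and Nat10-ZcKO MII libraries, without scaling to library size. WT MII replicate 1 lies above every Nat10-ZcKO MII library for each gene, and WT GV libraries range from 117 to 1022 counts for Sars and from 12 to 179 for Cntn3.

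Markers of cumulus and granulosa cells, the somatic cells around the oocyte, were a larger share of WT replicate 1 than of any Nat10-ZcKO library. The 20 genes took 0.521% of WT replicate 1 (19 with a count) and 0.438%, 0.210% and 0.188% of the Nat10-ZcKO libraries (16, 16 and 13 with a count), and WT replicate 2 held 0 counts on all of them. Of 11 tested, 5 were below WT in all Nat10-ZcKO libraries, 1 above and 5 across it, beside 19.7% below and 28.3% above over all genes tested, with a median log2 fold change of -0.80, and 0 were called. Ptx3, a matrix protein of the expanded cumulus, held 285 counts in WT replicate 1 and 221, 62 and 127 in Nat10-ZcKO (95% interval of the log2 fold change -2.38 to -0.62, adjusted p 0.150). Cyp19a1 was the 1 above, at 5 counts in WT replicate 1 and 23, 11 and 8 in Nat10-ZcKO. Fst, Hsd17b1 and Inhbb, which lay across WT, had log2 fold changes of 0.40, 0.44 and 0.31. Fshr, the FSH receptor of granulosa cells, had 0 counts in each MII library, Amhr2 1 in WT replicate 1 and 0 in the others, and Foxl2 5 in WT replicate 1 and 2, 3 and 0 in Nat10-ZcKO. Vim and Actb, abundant in somatic cells, were picked from other lists, had log2 fold changes of -1.17 and -1.16, and did not pass. The actin cortex list, which holds Actb, had 4 members above WT in all Nat10-ZcKO libraries and 4 below. The part of these cells in the lower call of Adamts1 was not tested. Oviduct markers (0.0653% in WT replicate 1 and 0.0504% to 0.0984% in Nat10-ZcKO) lay across WT. Blood, stromal and adipocyte markers held at most 0.0616% in the 4 larger libraries, keratin genes held 0.0630% in WT replicate 1 and 0.00814% to 0.0128% in Nat10-ZcKO, and all 4 lists were above every Nat10-ZcKO library in WT replicate 1.

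No member passed as higher in Nat10-ZcKO, and the 5 with the smallest unadjusted p are given as values. Trim33, a ubiquitin ligase that acts on SMAD signals, held 1 count in WT replicate 1 and 29, 18 and 19 in the Nat10-ZcKO libraries (log2 fold change 3.94, SE 1.13, adjusted p 0.150). Cops6, a subunit of the COP9 signalosome, held 3 counts and 11, 45 and 21 (adjusted p 0.213). Eny2, shared by the SAGA and TREX-2 complexes, held 2 counts and 32, 24 and 15 (adjusted p 0.213). Plac8 held 2 counts and 40, 9 and 11 (adjusted p 0.575). Magoh, a core protein of the exon junction complex, held 22 counts and 93, 67 and 77 (log2 fold change 1.47, SE 0.56, adjusted p 0.585). In each gene every Nat10-ZcKO library was above WT replicate 1, and 4 of the 5 had passed the threshold through the Nat10-ZcKO mean alone.

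Genes with a CPE match carried a larger part of the 4 larger MII libraries than of the WT GV libraries, and WT MII replicate 1 lay inside the Nat10-ZcKO range. They took 27.3% of the counts of WT MII replicate 1 and 33.7%, 25.8% and 31.7% of those of Nat10-ZcKO MII, against 11.4%, 12.2% and 13.0% in WT GV. Without those 20 genes the share was 31.2% for WT MII replicate 1, against 32.0%, 29.9% and 33.8% for Nat10-ZcKO, and 14.2% to 14.7% in WT GV. WT MII replicate 1 lay inside the range here too, and WT MII replicate 2, at 15.9%, lay below Nat10-ZcKO GV replicate 1, at 17.4%, and below GV replicate 2. Among genes tested, the median log2 fold change was 0.13 for the 728 with a match and 0.09 for the 2015 without. Of members with at least 100 bases of 3′ UTR, 31.0% held a match, beside 26.5% of genes tested and the 17.7% of all genes. Of the members that passed in both groups, those with all Nat10-ZcKO libraries above WT held a match in 30.6%, those with all below in 29.9% and those with WT inside the range in 32.4%.

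Base composition of the coding sequence moved a little with the difference. In 5 equal bins of coding GC content the median log2 fold change was 0.23 in the lowest and -0.02 in the highest, and Spearman's rho over 2923 genes was -0.14, or -0.17 to -0.10 when each Nat10-ZcKO library was left out in turn. Among the 844 members that passed in both groups, the median coding GC was 50.8% for those above WT in all Nat10-ZcKO libraries, 51.8% for those with WT inside the range and 54.4% for those below. The points share libraries, and the part of composition in the gene differences was not tested.

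The ac4C signal of WT GV oocytes, read as the share of a class in the anti-ac4C over the anti-IgG library, was 1.73 for DNA methylation and imprint genes (exact interval 1.61 to 1.86), 1.38 for the Tcl1 family and 1.23 for the maturation-activated mRNAs (1.15 to 1.32). It was 0.779 for the subcortical maternal complex (0.749 to 0.810), 0.827 for rRNA processing (0.760 to 0.902) and 0.577 for the oocyte-secreted factors (0.551 to 0.605). There is 1 library of each antibody, so these intervals cover counting error only. Classes with WT replicate 1 inside the Nat10-ZcKO range stood on both sides of 1 in this ratio.

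WT MII replicate 2 gave a different picture. Its 1251 members held 21.7% of counts, 1108 of them at 0, and a count of 0 allows up to 623 CPM there against 22.2 CPM in WT replicate 1. The 5 genes with most counts were Gja4 (254), A930002H24Rik (239), Lmx1b (138), Kcnh2 (118) and Ncapd2 (116), together 18.0% of the library. None is a member, and in the other MII libraries the highest of these 5 was Kcnh2 at 129 CPM, with Lmx1b at 0 in all 4. Vsig8 held 66 counts in it, Mroh6 22, Sars 12, Plat 10 and Snx8 0. Zona genes, NLR genes and egg activation genes had 0 counts. With this library in place of WT replicate 1, the median log2 fold change in edgeR was 6.52 over the 2809 genes tested. Genes as a whole were thus shifted upward, and the calls of that fit are not read as changes of single genes.

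Members near the threshold show how thin its edge is. Just inside were 5730480H06Rik, at 13 counts in WT replicate 1 and a Nat10-ZcKO mean of 20, and Ank3 and Cdkn1b, at 20 in WT replicate 1 and a mean of 18.7. Just outside were Aldh9a1 and Baz2b, at 15 and 10 counts in WT replicate 1, and Dlgap1 at 1, each with a mean of 19.7. Dlgap1 reached that mean through 49 counts in 1 Nat10-ZcKO library, with 1 and 9 in the others.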

How the data were processed

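Ribo-seq was made from 5 MII and 6 GV libraries. The authors deposited raw counts per gene on the CDS, 1 library each, without normalization; per the submitters' processing notes, cutadapt, STAR, HTSeq and mm10 were named without version. rRNA removal and treatment of PCR copies were not given in the sources used here. PCR copies are not independent molecules, so the exact intervals, which cover counting error only, may be too narrow even for that. The intervals of log2 fold changes come from the edgeR fit and include the spread among the Nat10-ZcKO libraries, pooled over genes. No spread between WT libraries enters them.

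CPM was computed by library total, TPM by GENCODE M21 coding length. Groups followed the labels. edgeR 4.0.16 (R 4.3.3; filterByExpr, TMM, glmQLFit, glmQLFTest, Benjamini-Hochberg over 2924 genes) compared WT MII replicate 1 with 3 Nat10-ZcKO libraries; this fit shrank every gene to 1 common spread. Alternatives were DESeq2 1.42.0, other libraries, filters, scalings and a replicate block. The steps were tested on simulated data. Of the gene identifiers, 22399 matched GENCODE M21 and 43 did not. Class shares have Clopper-Pearson 95% intervals (scipy 1.17.1). Totals per library were 4815 to 279464 counts.

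Members, gene lists and tests were chosen with earlier results of these data known. Genes named are Nat10; the 20 members of highest mean CPM; up to 12 called in each direction, or the 5 of smallest unadjusted p; up to 4 members of highest CPM per class; the 10 most abundant with an interval inside 2-fold; 3 genes on each side of the threshold; and the 5 highest in WT MII replicate 2. Others (such as Ccnb1, Dazl, Ptx3, Vim, Foxl2, Fshr and Amhr2) were chosen after their values were seen.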

Additional observations from a re-analysis of the deposited data

Results flagged for a closer look

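The largest values of WT MII replicate 2, the library shown apart, stand out because they lie far above the level in the other 4 MII libraries. Gja4, the gap junction protein connexin 37 of the oocyte, held 52752 CPM there and at most 116 CPM elsewhere at MII. A930002H24Rik held 49637 CPM against at most 74.5 CPM. Lmx1b, a LIM homeobox transcription factor, held 28660 CPM against 0. Kcnh2, a potassium channel, held 24507 CPM against at most 129 CPM, and Ncapd2, a condensin subunit, held 24091 CPM against at most 126 CPM. In counts these are 116 to 254, in a library of 4815, and what gave rise to them was not tested. Neither group of MII libraries held 4 or more samples, so no sample was tested as an outlier.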

How the results depend on the processing

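With the mean of both WT MII libraries as the WT value, log2 ratios were 0.85 for oocyte-secreted factors, 1.63 for the subcortical maternal complex, 0.86 for the Tcl1 family, 0.87 for mRNA decay, 0.94 for the anaphase-promoting complex, 0.94 for imprint genes, 1.3 for histone supply, 0.98 for maturation-activated mRNAs, 1.10 for translation factors, 0.82 for chaperones, 0.26 for splicing and -3.87 for tRNA synthetases, and spindle assembly turned to -1.50, with 116 counts of Ncapd2 making up all of that class in WT MII replicate 2. Without the 20 genes of highest CPM in any MII library the subcortical maternal complex stood at 0.43 and tRNA synthetases turned to 0.29, Sars being one of the 20. The tRNA synthetases were at -5.20 by TPM and -5.84 over members only. Leaving out each Nat10-ZcKO library kept every abundant class within 1 SD of its value. Genes called lower, 6 in the fit reported, were 121 with WT MII replicate 2 in place of replicate 1, 3 in a fit of 7 libraries, 0 in a fit of 10, 2 by DESeq2, and 0 to 9 when each Nat10-ZcKO library was left out. Genes called higher, 0 in the fit reported, were 1330 with WT MII replicate 2 in place and 0 to 1 when each Nat10-ZcKO library was left out. The 26 members with an interval inside 2-fold became 0 with all 5 MII libraries, 0 with WT MII replicate 2 in place, 0 with 10 libraries, 106 with 7, 49 with library size only, 123 with members only, and 0 to 84 on leaving out a library. With WT MII replicate 2 in place Adamts1 reversed to 5.99 on the log2 scale. It had 0 counts in that library, and the median over all genes tested in that fit was 6.52, so genes as a whole were shifted upward. A minimum of 10 counts gave 2343 members and one of 50 gave 486. Where no cause is named, the cause was not tested. With a replicate block over all 5 MII libraries 0 genes were called higher, 0 lower, and 0 had an interval inside 2-fold. Same-numbered libraries had correlations of deviations of 0.0073 and 0.13. The deviations of the 2 WT libraries from their mean mirror each other, so these values could neither show nor exclude pairing. The numbers were not taken to pair the libraries. Every call of the fit reported rests on 1 WT library.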
